A study of Mus musculus with 4 samples.

Results

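Nqo1, Acsm4, Ncam2 and Cidea are 4 genes used to tell dorsal from ventral olfactory sensory neurons (OSNs), and they were taken by name from the 55511 genes of the count table. The main olfactory epithelium of 4 male C57BL/6 mice aged 8 weeks was dissociated, and 1 droplet-based 3′ RNA-seq library was made per mouse. All 4 mice form a single untreated group, so every comparison was made between cells of the same animals. The p-values rest on how far the differences between groups varied from mouse to mouse, with the estimate of that variation shared over genes. They therefore do not measure the spread of a single gene over 4 mice. Of 21809 barcodes, 15859 cells were kept by the deposited annotation, among them 10519 mature OSNs (mOSN), 1006 late immature OSNs (iOSN2), 866 early immature OSNs (iOSN1) and 284 immediate neuronal precursors (INP). A receptor identity was given to 9791 mature neurons, of which 9539 lay in 10 clusters (5 dorsal, 5 ventral) that had been built without receptor genes. The authors told dorsal from ventral clusters by Nqo1 and by Nfix, a nuclear factor I gene. The names of the sides thus rest in part on 1 of the 4 markers, and the clusters were made on these genes among others.

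Each mature OSN expresses 1 odorant receptor gene, and the epithelium is divided along a dorsomedial to ventrolateral axis into zones in which different receptors can be chosen. Class I receptors and a part of the class II receptors belong to the dorsal zone, and the remaining class II receptors belong to overlapping ventral zones. Nqo1 encodes NAD(P)H quinone dehydrogenase 1, a flavoprotein that reduces quinones and is a classical dorsal marker. Acsm4 encodes a medium-chain acyl-CoA synthetase of mitochondria. Ncam2, also known as OCAM, encodes a cell adhesion molecule of ventral OSN axons, and Cidea encodes a protein best known from lipid droplets of brown fat.

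Nqo1 (ENSMUSG00000003849) lies on the minus strand of chromosome 8 from 107388225 to 107403206. Acsm4 (ENSMUSG00000047026) lies on the plus strand of chromosome 7 from 119690026 to 119714565. Ncam2 (ENSMUSG00000022762) lies on the plus strand of chromosome 16 from 81200697 to 81626828, and Cidea (ENSMUSG00000024526) on the plus strand of chromosome 18 from 67343604 to 67367785, all in GRCm38. Levels are given as UMIs (unique molecular identifiers, counted transcript molecules) per 10000 UMIs of the summed cells of a mouse, as mean ± SD over 4 mice, and were not compared between genes. Short non-coding and predicted genes overlap Ncam2 (Gm26023 on the other strand, 7120432I05Rik and Gm49555 on the same strand) and Cidea (B430212C06Rik on the other strand), and these held 3, 295, 739 and 66 UMIs in the whole table against 8102 for Ncam2 and 8837 for Cidea.

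The 4 libraries held between 23157467 and 32382702 UMIs, with a median of 3624.5 to 5717.5 per barcode. Any pair of libraries shared 4 to 14 barcodes. The cell types carried their defining genes: Omp was at 72.1 UMIs per 10000 in mOSN, Gap43 at 32.3 in iOSN1, Krt5 at 21.3 in the horizontal basal cell group HBC1, Cyp2a5 at 107 in sustentacular cells (Sus) and Ascl3 at 19.5 in the microvillar group Mv2. HBC2 held sustentacular Cyp2a5 (46.8) beside basal Krt5 (7.28). Omp was also found at 0.822 (Mv2) to 6.53 (immune) outside the neuronal lineage, and its part in the low levels of the zone markers there was not tested.

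The bases before the start sites are shown because the dorsal markers were compared for shared letters. The window of Cidea was not searched, so the ventral markers could not be compared with each other. The 250 bases upstream of 3 of the genes (RefSeq, GRCm38.p6, 5′ to 3′ on the strand of the gene) were searched on both strands for 1 arm of the palindromic nuclear factor I site (TTGGC), an antioxidant response element (TGACNNNGC), the palindromic site of the Ebf factors and a LIM homeodomain core (TAATTA). Matches are in capitals.
Nqo1, chr8:107403206-107403455, minus strand: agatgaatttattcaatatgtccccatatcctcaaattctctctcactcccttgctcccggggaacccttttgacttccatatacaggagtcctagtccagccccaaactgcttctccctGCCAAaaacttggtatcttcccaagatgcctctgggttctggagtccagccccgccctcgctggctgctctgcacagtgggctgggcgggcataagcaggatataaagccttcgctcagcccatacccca
Acsm4, chr7:119689776-119690025, plus strand: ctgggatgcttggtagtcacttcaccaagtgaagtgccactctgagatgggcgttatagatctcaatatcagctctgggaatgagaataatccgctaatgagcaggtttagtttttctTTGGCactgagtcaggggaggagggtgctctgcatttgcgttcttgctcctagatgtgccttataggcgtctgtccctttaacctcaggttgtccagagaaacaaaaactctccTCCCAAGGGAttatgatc
Ncam2, chr16:81200447-81200696, plus strand: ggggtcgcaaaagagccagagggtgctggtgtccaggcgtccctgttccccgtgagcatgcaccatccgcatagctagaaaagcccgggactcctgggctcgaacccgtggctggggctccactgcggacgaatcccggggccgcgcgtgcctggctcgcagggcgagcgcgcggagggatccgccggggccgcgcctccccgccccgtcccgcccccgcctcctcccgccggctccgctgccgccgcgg
Both dorsal genes held the nuclear factor I arm. It lay on the strand opposite the gene 130 to 126 bases before the start of Nqo1 (printed as GCCAA). Before Acsm4 it lay on the strand of the gene, 132 to 128 bases from the start. These letters occurred in 41.5% of all 32851 promoters of the same length. Acsm4 also held the Ebf site 18 to 9 bases before its start, as did 0.779% of promoters. None of the 4 motifs (antioxidant response element in 10.2% and LIM homeodomain core in 4.84% of promoters) was found before Ncam2, whose window was 75.2% G and C against a median of 52.4%.

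Across cell types, each marker had its own range. Nqo1 was highest in mature neurons, at 7.23, 7.97, 8.50 and 5.26 UMIs per 10000 in mice 1 to 4 (7.24 ± 1.42, SD, n = 4). It stood at 4.07 ± 1.79 in iOSN2, 1.89 ± 0.739 in iOSN1 and 0.120 ± 0.0610 in INP. The mice of mOSN and iOSN2 overlapped, as did those of iOSN2 and iOSN1, whereas every mouse was lower in INP than any in iOSN1. Outside the lineage Nqo1 was at 1.16 ± 0.364 in HBC1 and 1.01 ± 0.627 in HBC2, and lowest in Mv2 (0.0735 ± 0.0638).

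Acsm4 was not highest in neurons. Sustentacular cells, the supporting cells of the epithelium, held 2.82, 3.55, 4.64 and 3.59 UMIs per 10000 (3.65 ± 0.750), above every mouse's value in HBC1 (2.16 ± 0.560), mOSN (1.58 ± 0.331) and iOSN2 (1.48 ± 0.556). Omp was at 3.54 in the same sustentacular cells and at 72.1 in mOSN. HBC1, mOSN and iOSN2 overlapped in Acsm4. The mOSN level is a mean over both sides. Mature neurons with a receptor of the dorsal side (defined below) held 5.09 ± 0.299, above every mouse's value in sustentacular cells.

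Ncam2 was highest in early immature neurons, at 1.93, 2.24, 1.80 and 1.82 (1.95 ± 0.204), above iOSN2 (1.24 ± 0.233) and mOSN (1.01 ± 0.102) in every mouse. The next epithelial type was INP at 0.249 ± 0.121, and all others were at or under 0.157. Cidea reached 1.32 ± 0.208 in mOSN and 1.30 ± 0.184 in iOSN2, which overlapped. It was lower in iOSN1 (0.300 ± 0.0343), which overlapped with Sus (0.269 ± 0.0568), and at or under 0.107 elsewhere. Within each mouse Nqo1, Acsm4 and Cidea were thus higher in iOSN2 than in iOSN1, and Ncam2 was lower. These levels are a description, since the types had been clustered on all genes.

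**Figure D1:**
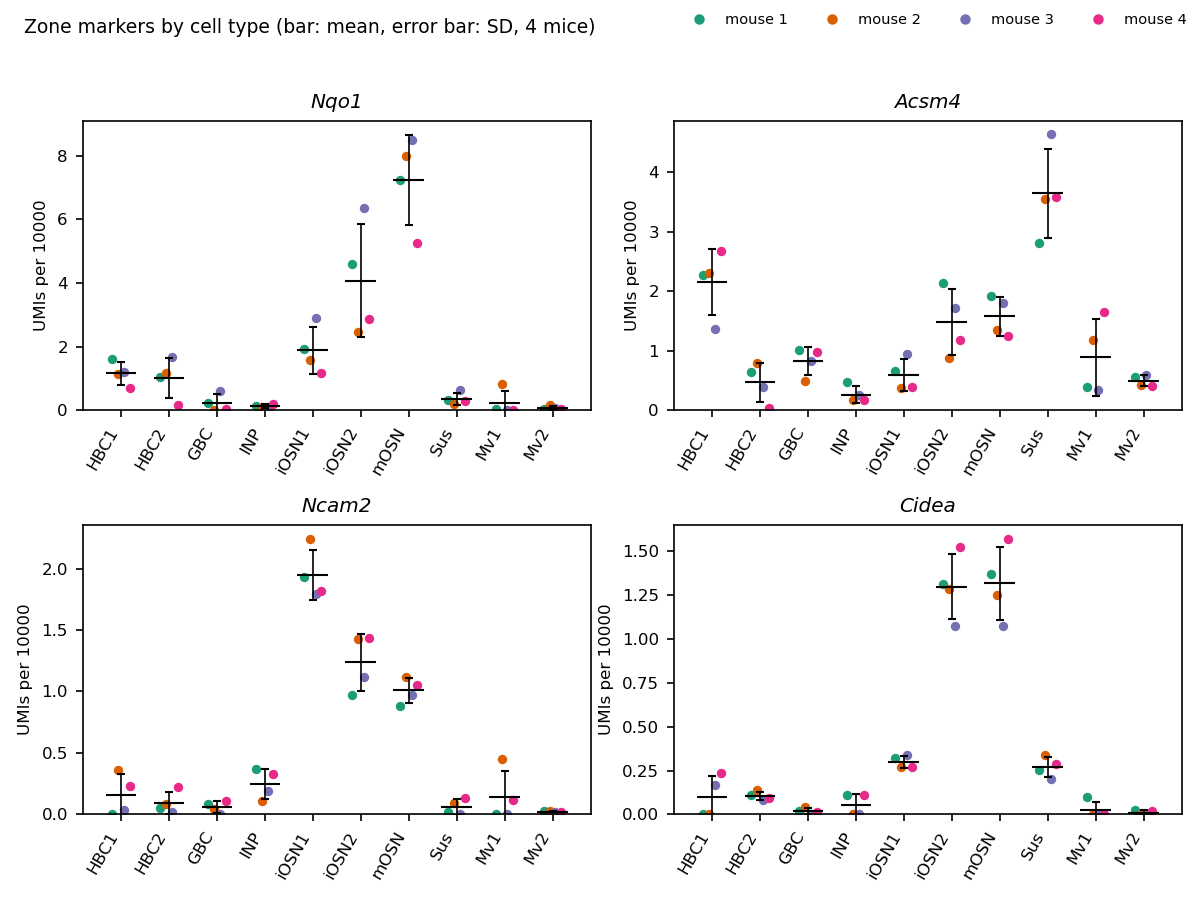
Levels of the 4 zone markers in 10 epithelial cell types (GBC, globose basal cells), in UMIs per 10000 on a separate linear axis for each gene, with 1 point per mouse, a bar for the mean and an error bar for the SD of 4 mice. Nqo1 peaks in mOSN (7.24), Acsm4 in Sus (3.65), Ncam2 in iOSN1 (1.95) and Cidea in mOSN and iOSN2 (1.32 and 1.30).

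Within mature neurons, the clusters had been made on these genes among others, so their levels are also given without a test. Nqo1 was at 21.9, 30.0, 25.7 and 20.6 UMIs per 10000 in all dorsal clusters together (24.6 ± 4.21) and at 0.620, 0.574, 0.710 and 0.358 in all ventral clusters (0.566 ± 0.150). It was not even among dorsal clusters. Calb2+ D. held 34.1 ± 4.39, Cd55+ D. 28.8 ± 2.54, Dorsal 25.2 ± 4.84, Cd36+ D. 20.6 ± 3.26 and Dlg2+ D. 13.6 ± 2.99, where neighbours in this order overlapped but Calb2+ D. and Dlg2+ D. did not. Acsm4 was at 5.07 ± 0.382 in dorsal and 0.190 ± 0.0350 in ventral clusters, with its highest level in Calb2+ D. (6.37 ± 0.510) and its lowest dorsal level in Cd55+ D. (2.81 ± 0.593). Cd55+ D. thus came next to the highest cluster for Nqo1 and last of the dorsal clusters for Acsm4.

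Ncam2 was at 1.37 ± 0.113 in ventral and 0.0594 ± 0.0150 in dorsal clusters. Dlg2+ V. (1.68 ± 0.260), Cd55+ V. (1.51 ± 0.192), Calb2+ V. (1.42 ± 0.285) and Ventral (1.39 ± 0.101) overlapped, and Cd36+ V. was lower in every mouse (0.614 ± 0.0424). Cidea separated the ventral clusters. It was at 2.07 ± 0.251 in Ventral, 1.86 ± 0.320 in Dlg2+ V. and 1.71 ± 0.554 in Calb2+ V., but at 0.115 ± 0.0474 in Cd55+ V. and 0.0987 ± 0.0329 in Cd36+ V., which overlapped with the Dorsal cluster (0.109 ± 0.0261). One dorsal cluster, Dlg2+ D., held more Cidea (0.689, 0.905, 0.531 and 0.845 in mice 1 to 4) than both of these ventral clusters. In Cd36+ D. no Cidea UMI was counted in 197 neurons, which allows up to 0.0295 UMIs per 10000 (3 counts over the group, counting error only).

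**Figure D2:**
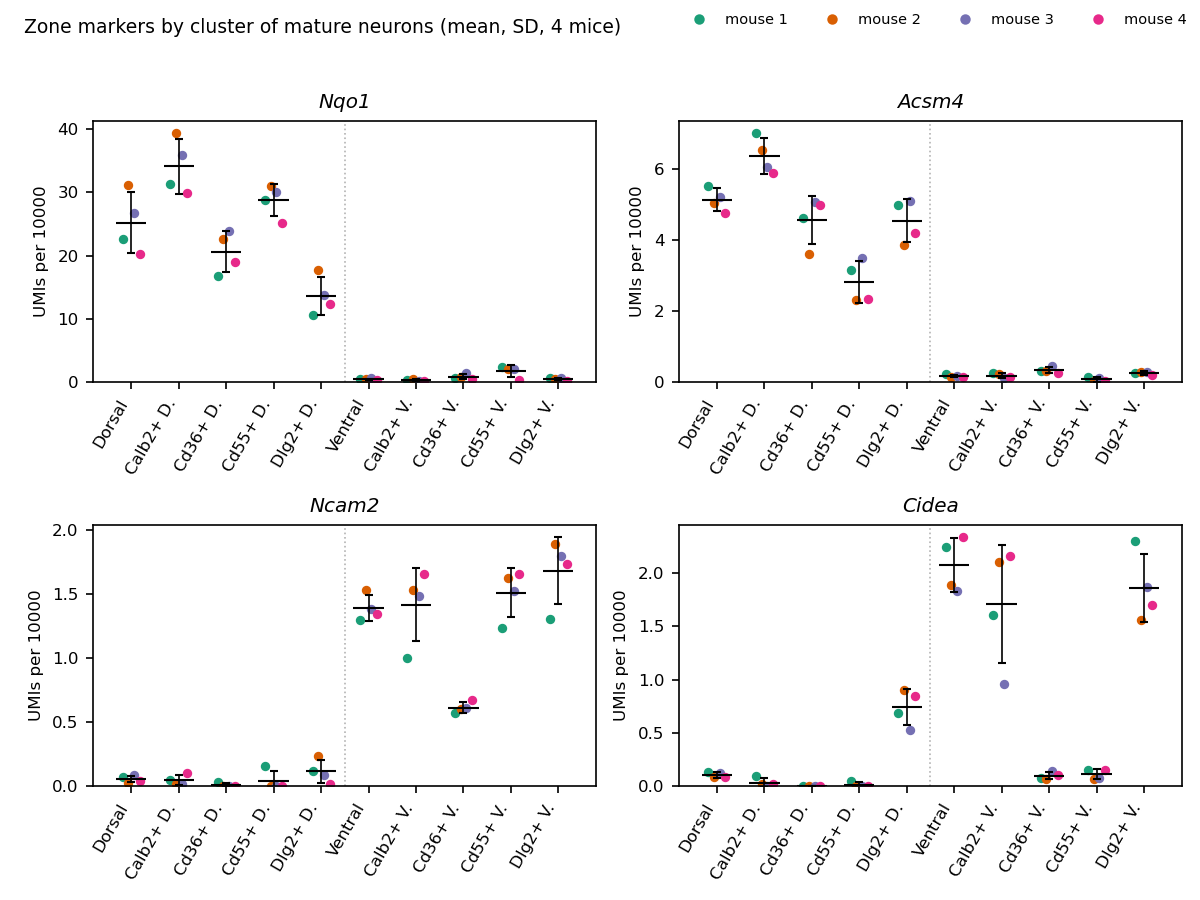
Levels of the 4 markers in the 10 clusters of mature neurons, dorsal left and ventral right of the dotted line, in UMIs per 10000 on a separate linear axis for each gene, with 1 point per mouse, a bar for the mean and an error bar for the SD of 4 mice. Nqo1 and Acsm4 are low in all 5 ventral clusters, and Cidea is low in Cd55+ V. (0.115) and Cd36+ V. (0.0987) as well as in most dorsal clusters.

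Single neurons showed how far each gene labels a side. After each cell was thinned to 2500 UMIs, Nqo1 was detected in 93.0 ± 2.89% of neurons in dorsal clusters, 5.72 ± 1.57% of those in ventral clusters and 1.27 ± 0.430% of Mv2 cells, which should lack it. Acsm4 was detected in 69.2 ± 2.65% of dorsal and 3.72 ± 0.879% of ventral neurons. Outside the neurons it was found in 43.0 ± 6.15% of Sus, 29.7 ± 5.31% of HBC1 and 10.2 ± 1.46% of Mv2 cells. The share was 2.20 ± 1.17% in HBC2 and 3.05 ± 1.13% in immune cells. Means of other types thus lay above and below the ventral share. Ncam2 was found in 26.5 ± 1.67% of ventral, 1.16 ± 0.176% of dorsal neurons and 0.819 ± 0.333% of Mv2 cells, and Cidea in 25.0 ± 2.98% of ventral and 3.51 ± 0.784% of dorsal neurons and 0.107 ± 0.213% of Mv2 cells. Median depths before thinning were 4897, 5100 and 5274 UMIs in the dorsal, ventral and Mv2 cells kept. Without thinning, at median depths of 4736 (dorsal) and 4857.5 (ventral) UMIs, the shares on the labelled side were 95.4%, 83.5%, 44.0% and 35.2% in the same order. A UMI of both Nqo1 and Ncam2 was found in 0.602 ± 0.299% of dorsal and 0.316 ± 0.240% of ventral neurons, 0.888 ± 0.533% of iOSN2 and 1.27 ± 1.28% of iOSN1 cells. Without thinning, joint detection of Nqo1 and Ncam2 was at 1.27%, 1.20%, 4.49% and 5.11% in the same order. The unthinned immature cells were deeper, at medians of 7301.5 UMIs in iOSN2 and 6830.5 in iOSN1. Both markers were thus seldom counted in the same cell, and at equal depth the mice overlapped between dorsal neurons (0.189 to 0.874%), iOSN2 (0.403 to 1.56%) and iOSN1 (0 to 2.73%).

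Neurons were next grouped by receptor, which asks whether cells that share a receptor share a zone state. The receptor grouping does not use the markers, but the side of a population does, through the clusters and through Nqo1 and Nfix, so the levels by side are a description. Of 960 populations, 134 had 20 or more neurons (4143 neurons in all). A population was called dorsal where over 50% of its neurons lay in dorsal clusters, which gave 35 dorsal (14 class I and 21 class II) and 99 ventral populations. Nqo1 ranged from 9.11 to 44.3 UMIs per 10000 over dorsal populations (median 29.3) and from 0 to 10.8 over ventral ones, where 52 of 99 held no Nqo1 UMI. A single ventral population, Olfr839-ps1, overlapped with the dorsal range. Acsm4 ranged from 3.10 to 7.30 over dorsal and from 0 to 1.57 over ventral populations, without overlap. Ncam2 was at 0 in 28 of 35 dorsal populations and at most 0.178 in the others, against 0.296 to 3.33 (median 1.42) in ventral ones, again without overlap. Cidea ranged from 0 to 0.354 in dorsal and from 0 to 8.36 (median 0.658) in ventral populations, where 16 held none.

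The edgeR quasi-likelihood F test over 98 populations, each represented by 3 or more neurons per mouse, called all 4 genes, with 945 of 1979 genes tested called in all (47.8%). F was 131.5 for Nqo1 (edgeR Benjamini-Hochberg adjusted p 7.10e-176), 38.4 for Acsm4 (1.66e-92), 38.3 for Cidea (8.40e-123) and 7.94 for Ncam2 (2.18e-44). By p-value the markers ranked 2, 24, 11 and 80 among the genes tested.

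The populations with the most Nqo1 were Olfr1176, Olfr1039, Olfr689, Olfr672 and Olfr411, of which Olfr689 and Olfr672 are class I. Olfr1176 neurons held 38.5, 48.1, 52.3 and 36.8 UMIs per 10000 in mice 1 to 4 and Olfr1039 neurons 40.9, 43.8, 60.5 and 37.6. Acsm4 was highest in Olfr1039 (8.56, 6.71, 7.34 and 6.86), followed by Olfr1030, Olfr411, Olfr77 and Olfr1025-ps1. Ncam2 was highest in Olfr365 (2.56, 3.15, 2.63 and 4.14), followed by Olfr1112, Olfr732, Olfr1018 and Olfr728. The 5 populations named for Acsm4 are all class II, and Olfr1039 and Olfr411 were among the top 5 for both dorsal genes.

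Cidea was highest in Olfr741 neurons, at 9.76, 7.46, 7.82 and 8.47 in mice 1 to 4. Olfr536 (8.20, 6.32, 8.95 and 8.39), Olfr726 (5.73, 7.66, 8.11 and 8.56), Olfr166 and Olfr1509 followed, and Olfr741, Olfr726 and Olfr1509 all lie on chromosome 14. Each of these 5 populations had 0% of its neurons in dorsal clusters. Over 76 ventral populations, in a fit added after the values were seen, edgeR called Cidea (F 36.1, Benjamini-Hochberg adjusted p 1.62e-100), Nqo1 (F 8.59, 2.51e-31) and Ncam2 (F 1.91, 0.000287), where 816 of 1904 genes were called (42.9%), and Acsm4 was too low to be tested. With the DESeq2 likelihood ratio test Nqo1 was not called there (adjusted p 1.0). Of all 99 ventral populations, 52 held no Nqo1 UMI, and some had neurons in dorsal clusters. Nqo1 UMIs in dorsal and ventral clusters numbered 63 and 4 in Olfr972, 51 and 15 in Olfr794 and 43 and 15 in Olfr523. They numbered 30 and 8 in Olfr686, and 71 and 91 in Olfr839-ps1, where ventral clusters held more. Whether the edgeR call of Nqo1 rested on neurons in dorsal clusters was not tested.

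Taking over 25% of the level in the highest population as high, 33 populations were high for Nqo1, 35 for Acsm4, 89 for Ncam2 and 30 for Cidea. All 33 populations high for Nqo1 were also high for Acsm4, and Olfr1025-ps1 and Olfr30 were high for Acsm4 without being high for Nqo1. Ncam2 and Cidea met less: 24 populations were high for both, 65 for Ncam2 without Cidea, and 6 for Cidea without Ncam2 (Olfr1416, Olfr15, Olfr1507, Olfr309, Olfr60 and Olfr726). Olfr1507 neurons, for example, held 5.86 ± 1.21 UMIs of Cidea and 0.473 ± 0.478 of Ncam2 per 10000. No population was high for both a dorsal and a ventral marker, though leaving out mouse 1 or mouse 3 gave 2 or 1, and 6 were high for both when high meant over 1 UMI per 10000. Olfr839-ps1 came close, at 10.8 for Nqo1 where the highest population held 44.3. Olfr1118, Olfr330, Olfr788 and Olfr806 were high for none.

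**Figure D3:**
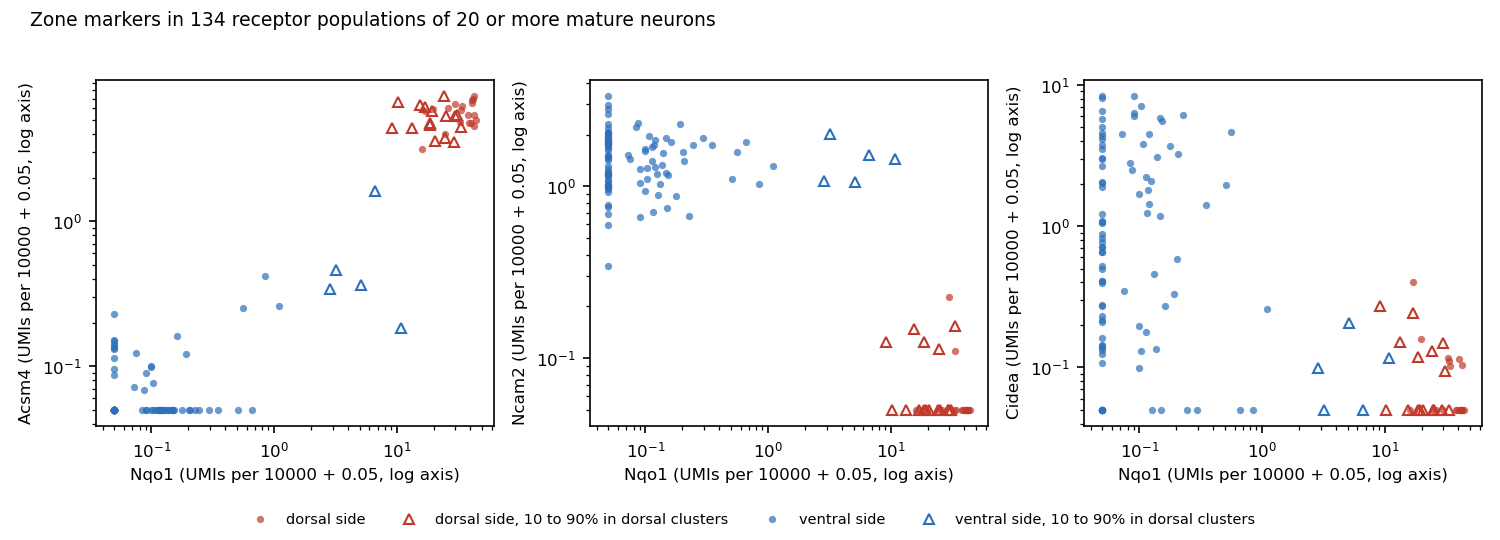
Acsm4, Ncam2 and Cidea (vertical axes) against Nqo1 (horizontal axis) in the 134 populations with 20 or more neurons, in UMIs per 10000 on log axes after adding 0.05, with 1 symbol per population coloured by side and triangles where 10 to 90% of the neurons lay in dorsal clusters. Dorsal populations lie at 9.11 or more for Nqo1 and 3.10 or more for Acsm4, ventral ones at 0.296 or more for Ncam2, and Cidea spreads from 0 to 8.36 among ventral populations.

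Correlations over populations describe this pattern, with log2 levels after adding 0.5 (populations share libraries, and no test was made). Nqo1 went with Acsm4 (Pearson r 0.97, Spearman rho 0.74, n = 134) and against Ncam2 (−0.88 and −0.64). Ncam2 went with Cidea only weakly (0.34 and 0.29), and within the 99 ventral populations the sign was negative (−0.28 and −0.26). For Nqo1 and Acsm4 the values were 0.20 and 0.22 within the 35 dorsal populations, and 0.74 and 0.27 within the 99 ventral ones, of which 52 held no Nqo1 UMI.

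Of 3502 genes compared, those most like Nqo1 over the 134 populations were Acsm4, Ppa1 (inorganic pyrophosphatase, r 0.85), Acss2 (acetyl-CoA synthetase, 0.83), 2810001G20Rik (0.81) and Rnd2 (0.80). Those most opposite were the nuclear factor I genes Nfix (−0.95) and Nfib (−0.91), then Ncam2, Sytl1 and Gldc. Ncam2 was most like Nfix (0.90), Nfib (0.80) and Gldc (0.80). Cidea had other neighbours: Pdlim1, Nsg1, Tuba4a, Ifi27 and Efr3b on its side (0.79 to 0.75), and Cartpt (−0.87), Tmsb4x (−0.86) and the axon guidance receptor gene Robo2 (−0.81) opposite. In ventral populations alone the r of Cidea with Robo2 was −0.80 (rho −0.78, n = 99) and with the neuropilin gene Nrp2 0.62 (rho 0.61).

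**Figure D4:**
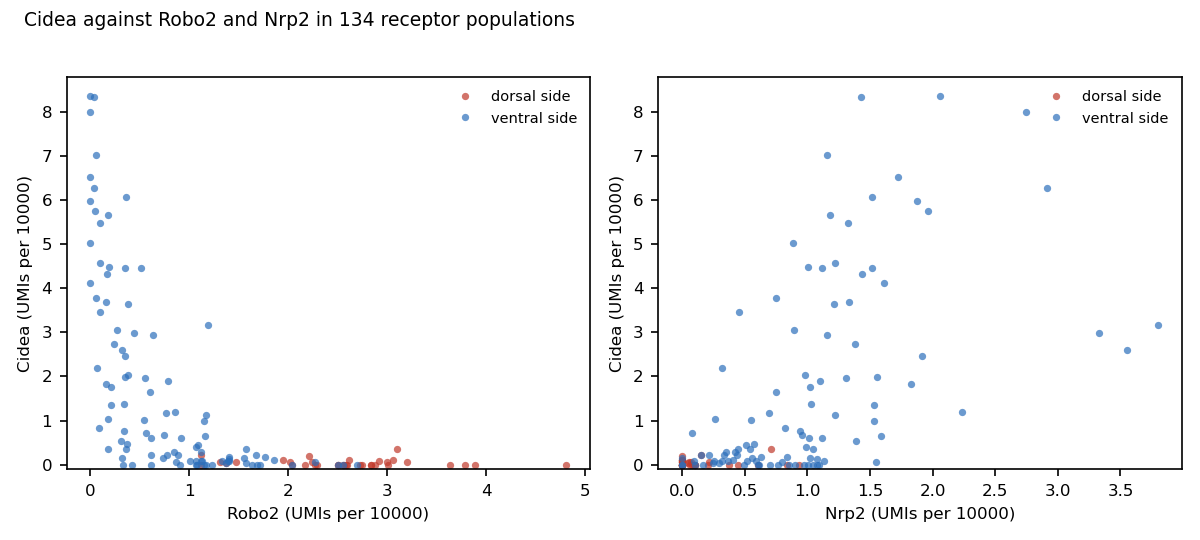
Cidea (vertical axis) against Robo2 (left) and Nrp2 (right) in the 134 populations, in UMIs per 10000 on linear axes, with 1 point per population coloured by side. Populations high in Cidea are low in Robo2 and mostly hold Nrp2, and dorsal populations lie at or under 0.354 for Cidea.

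In 21 of the 134 populations between 10% and 90% of the neurons lay in dorsal clusters, and the 8 with the most neurons were Olfr1361, Olfr523, Olfr1037, Olfr24, Olfr419, Olfr446, Olfr30 and Olfr839-ps1. In some of them the neurons in ventral clusters still held dorsal markers. The 6 Olfr1361 neurons in ventral clusters held Acsm4 at 3.18 UMIs per 10000, and the 6 Olfr1037 neurons there held Nqo1 at 11.8 and Acsm4 at 4.71. No Ncam2 UMI was counted in either, which allows up to 1.59 and 1.41 UMIs per 10000 (3 counts). At this depth a ventral level of Ncam2 (1.37) could not have been told from none in either group. Deeper groups held less than that level: the 13 Olfr24 and 12 Olfr30 neurons in ventral clusters held 1 Ncam2 UMI each (0.185 and 0.212 UMIs per 10000). Nqo1 was at 5.55 and 3.82 in them, and Nfix at 3.52 and 3.82. In Olfr523 the markers followed the clusters, with Nqo1 at 23.7 in the 5 neurons of dorsal and at 0.805 in the 36 neurons of ventral clusters, where Ncam2 was at 1.07 and Nfix at 6.01.

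Olfr839-ps1, a receptor pseudogene population of 28 neurons with 21.4% in dorsal clusters, held the most Nqo1 of any ventral population (10.8) with almost no Acsm4 (0.133) and with Ncam2 at 1.40. Its Nqo1 level was 4.39, 18.1, 0 and 8.77 in mice 1 to 4, so the mice differed widely. The 14 neurons without an Nqo1 UMI held Ncam2 at 2.65 and Nfix at 3.71, and the 14 with Nqo1 held Ncam2 at 0.134 and Nfix at 0.805. Nqo1 and Ncam2 thus lay in different neurons of this population, which a population mean hides, and Acsm4 was found in 1 of the 14 Nqo1 neurons. This split by Nqo1 was chosen after the values were seen.

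Receptor class gives groups set by the position of the receptor gene alone (class I genes lie in 1 cluster of chromosome 7, 102476579 to 105369355). In mature neurons Acsm4 was at 5.24, 4.77, 5.05 and 5.16 in class I (5.05 ± 0.205) and at 1.12 ± 0.231 in class II, a log2 difference of 2.22 (SE 0.05, edgeR adjusted p 2.17e-131). Ncam2 was at 0.0989 ± 0.0472 against 1.11 ± 0.106 and differed by −3.53 (SE 0.13, edgeR adjusted p 2.06e-74), where 18.6% of 11835 genes were called, 9.71% higher and 8.89% lower in class I (2201 genes, 1017 with DESeq2). Nqo1 and Cidea were also called, at 2.43 and −2.77. Among 11 class I populations (321 neurons), the edgeR F test called Nqo1 (F 35.0, adjusted p 6.82e-25) and Acsm4 (F 9.11, 1.17e-08), where 138 of 1101 genes were called (12.5%), and Ncam2 and Cidea were too low to be tested. The spread was not confined to the step between classes. Olfr686, the single class I population on the ventral side, was at 3.13 for Nqo1, 0.411 for Acsm4 and 1.97 for Ncam2 in 27 neurons. Its 3 neurons in dorsal clusters held Nqo1 at 27.1 and its 24 in ventral clusters at 0.724, so 3.13 is a mean over unlike cells. With no filter on low counts Ncam2 was also called among class I populations (F 9.09, edgeR adjusted p 1.65e-12), and Cidea was not. Whether the calls rested on Olfr686 was not tested.

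Neurons with trace amine-associated receptors (44 in all) held a different mix. Acsm4 was at 5.31, 6.70, 5.83 and 2.18 in mice 1 to 4 (5.01 ± 1.97), the class I level, whereas Nqo1 was at 0.861, 5.67, 2.46 and 0 (2.25 ± 2.50) and Ncam2 at 1.51 ± 0.717, near the 1.37 of ventral clusters. The 12 Taar2 neurons, 11 of them in dorsal clusters, held Acsm4 at 7.28, Nqo1 at 0.753 and Ncam2 at 0.878, and the 13 Taar4 neurons 5.24, 2.72 and 0.628. By contrast the 7 Taar6 neurons, 6 of them in ventral clusters, held Acsm4 at 0.691, no Nqo1, Ncam2 at 2.53 and Cidea at 1.84. The 3 Taar7d neurons, 1 of them in a dorsal and 2 in ventral clusters, gave 21 of the 56 Nqo1 UMIs of the group, and Nqo1 and Acsm4 were each found in 1 of the 3. The Taar6 neurons gave 11 of the 35 Ncam2 UMIs. A UMI of both Acsm4 and Ncam2 was found in 16 of the 44 neurons. The receptors thus differed among themselves, and no test by receptor was made in this small group.

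To see when the difference between sides appears, immature neurons were given the side of the receptor with the most UMIs (at least 3, no tie), where the side came from mature neurons only. Nqo1 and Nfix had helped to name that side, but in other cells than those tested here. This gave 202 dorsal and 653 ventral iOSN2 cells and 107 dorsal and 385 ventral iOSN1 cells. A receptor with 3 or more UMIs was found in 96.9% of mOSN, 97.0% of iOSN2, 72.1% of iOSN1 and 8.10% of INP cells, so INP cells (18 with a side) were not compared.

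In iOSN2, Nqo1 was at 15.4, 17.1, 21.1 and 14.0 UMIs per 10000 in dorsal cells (16.9 ± 3.04). In ventral cells it was at 0.668, 0.477, 0.0620 and 0.217 (0.356 ± 0.270), a log2 difference of 5.49 (SE 0.13, edgeR adjusted p 3.04e-40). The SEs here come from the fit, which shares variation over genes, and are not the spread of the difference over the 4 mice. Acsm4 was at 4.95 ± 0.448 against 0.306 ± 0.265 (3.95, SE 0.15, edgeR adjusted p 8.65e-30). Ncam2 was at 0.172, 0.246, 0.0772 and 0.412 in dorsal and 1.30, 1.61, 1.61 and 1.75 in ventral cells (−2.94, SE 0.21, edgeR adjusted p 1.35e-17). Cidea was at 0.193 ± 0.0891 against 1.63 ± 0.221 (−3.32, SE 0.21, edgeR adjusted p 6.65e-20). The sides did not overlap between mice for any of the 4 genes, and how many of all genes did so was not counted. Among 7989 genes 328 were called (4.11%), 156 higher (1.95%) and 172 lower (2.15%) on the dorsal side, and by p-value Nqo1, Acsm4, Cidea and Ncam2 ranked 1, 2, 6 and 10. Without mouse 3 the count was 214, and DESeq2 called 88.

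In iOSN1 the sides already differed. Nqo1 was at 7.10, 11.2, 11.4 and 6.21 in dorsal cells (8.96 ± 2.69) and at 0.0538, 0.341, 0.317 and 0.545 in ventral cells (4.90, SE 0.19, edgeR adjusted p 4.03e-25). Acsm4 was at 2.17, 2.63, 4.24 and 1.70 against 0.0323, 0.0262, 0.0634 and 0.0867 (5.63, SE 0.26, edgeR adjusted p 2.46e-22). Ncam2 was at 0.513, 0.447, 0.293 and 0.813 against 2.49, 2.50, 2.33 and 2.07 (−2.25, SE 0.20, edgeR adjusted p 9.28e-12). All 3 were apart in every mouse, which was likewise not counted over all genes. Among 6727 genes 183 were called (2.72%), 113 higher (1.68%) and 70 lower (1.04%). Without mouse 2 or mouse 3 the count was 89 or 83, and DESeq2 called 43.

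Cidea was also called in iOSN1, with the least support. It was at 0.0285, 0.224, 0.183 and 0 in dorsal and at 0.634, 0.354, 0.570 and 0.421 in ventral cells (−2.24, SE 0.42, edgeR adjusted p 0.000438), and ranked 47 of 6727. The call was lost without mouse 1 (−1.60, edgeR adjusted p 0.0507) and with DESeq2 (−2.29, adjusted p 0.0935).

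The size of the difference between sides was compared between iOSN2 and iOSN1 in 1 fit with an interaction term. None of the 4 genes was called by edgeR, where 29 of 8156 genes were (0.356%, of which 0.0245% toward a larger and 0.331% toward a smaller dorsal excess in iOSN2), or 9 without mouse 2, 15 without mouse 3 and 19 with DESeq2. Acsm4 differed by −1.76 (SE 0.51, edgeR adjusted p 0.157, unadjusted 0.00106), Cidea by −1.15 (SE 0.64, edgeR adjusted p 0.632), Ncam2 by −0.72 (SE 0.38, edgeR adjusted p 0.609) and Nqo1 by 0.61 (SE 0.37, edgeR adjusted p 0.674). One of the 4 had an unadjusted p under 0.05, and with DESeq2 none had. The values depended on single mice: Acsm4 was called without mouse 4 (−2.41, edgeR adjusted p 0.0401) and with no filter on low counts (−1.77, 0.00130), and Nqo1 without mouse 1 (1.49, 0.0269) but was at −0.053 without mouse 4. Acsm4 was at −0.95 without mouse 1. Cidea was at −0.54 without mouse 3 and −1.94 with the side taken from the other 3 mice, where Ncam2 was at −1.31, none of them called.

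**Figure D5:**
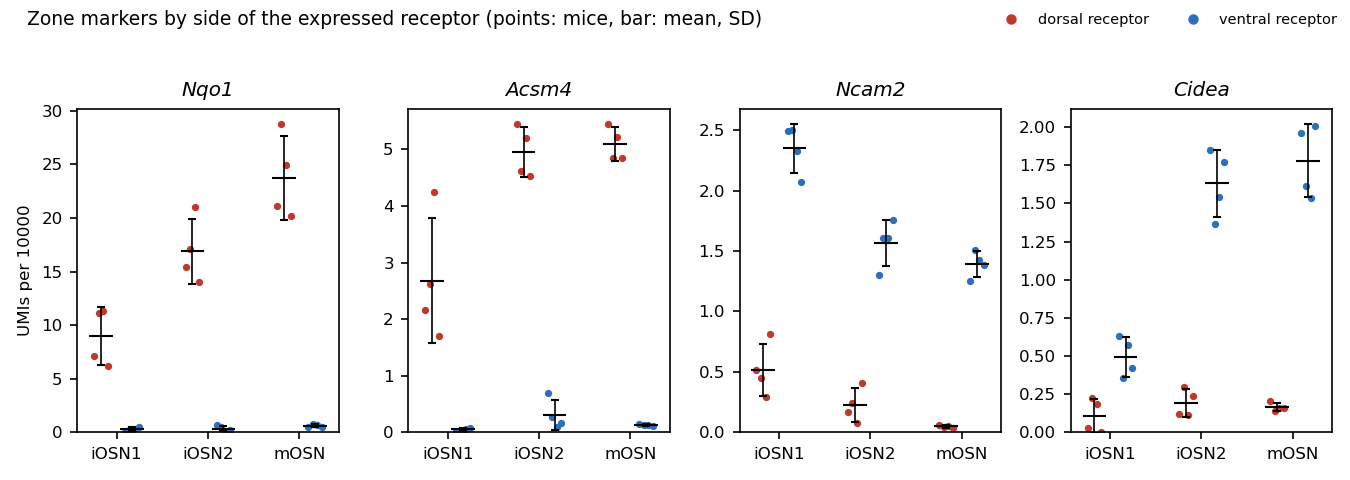
Levels of the 4 markers in iOSN1, iOSN2 and mOSN by the side of the expressed receptor, in UMIs per 10000 on a separate linear axis for each gene, with 1 point per mouse, a bar for the mean and an error bar for the SD of 4 mice. Dorsal Nqo1 is at 8.96, 16.9 and 23.8 in the 3 stages, and ventral Ncam2 at 2.35, 1.57 and 1.39.

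Over the 3 stages the markers took different courses on their own side, given as a description because the stages were clustered on all genes. Nqo1 in dorsal cells was at 8.96, 16.9 and 23.8 ± 3.91 in iOSN1, iOSN2 and mOSN. Acsm4 in dorsal cells was at 2.68 ± 1.11, 4.95 and 5.09 ± 0.299, and the mice of iOSN2 and mOSN overlapped. Ncam2 in ventral cells was at 2.35 ± 0.203, 1.57 ± 0.191 and 1.39 ± 0.106, and in dorsal cells at 0.516 ± 0.218, 0.227 ± 0.141 and 0.0489 ± 0.0124. Cidea in ventral cells was at 0.495 ± 0.130, 1.63 and 1.78 ± 0.240. Ncam2 was thus highest at the first stage on both sides, while the other 3 markers were lowest there on their own side.

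The 242 iOSN1 cells whose highest receptor had under 3 UMIs held Ncam2 at 2.02, 2.07, 1.93 and 1.77 (1.95 ± 0.128), where 3 mice lay within the range of all iOSN1 cells (1.80 to 2.24) and mouse 4 below it. Nqo1 was at 0.692, 0.0725, 0.644 and 0.373 in them (0.446 ± 0.286), below the lowest mouse over all iOSN1 cells (1.17). Acsm4 (0.152 ± 0.103 against 0.590 ± 0.271) and Cidea (0.0988 ± 0.0213 against 0.300 ± 0.0343) were also below in every mouse. In the 261 INP cells under 3 UMIs the levels were 0.0809 for Nqo1, 0.267 for Acsm4, 0.206 for Ncam2 and 0.0475 for Cidea. Within iOSN1, Ncam2 was thus near the level of its stage in cells with little receptor RNA and the other 3 markers were below theirs. In the 30 iOSN2 cells under 3 UMIs, Acsm4 was at 1.22 ± 1.41 (stage level 1.48), Ncam2 at 1.44 ± 0.823 (1.24), Cidea at 1.81 ± 0.732 (1.30) and Nqo1 at 0.948 ± 1.37 (4.07). These cells were few and the mice wide apart, and for all 4 genes they overlapped with all iOSN2 cells.

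Other zone genes gave the setting. Of 24 listed zone genes (nuclear factor I, neuropilin, semaphorin, plexin, Robo and retinoic acid genes), 14 were tested in iOSN2 and 7 called: Robo2 was higher on the dorsal side and Nfia, Nfib, Nfix, Nrp2, Plxna3 and Dhrs3 were lower (median over the list −0.25, over all genes 0.00052). Over all genes 4.11% were called, and DESeq2 called 5 of the 14. Nfix had itself been used to name the ventral clusters of mature neurons. Nfix was at 0.431, 1.82, 0.830 and 0.995 in dorsal and 3.58 ± 0.286 in ventral iOSN2 cells (−2.02, SE 0.13, edgeR adjusted p 3.17e-19), and Robo2 at 1.68 ± 0.262 against 0.886 ± 0.143 (0.92, SE 0.13, edgeR adjusted p 2.16e-07). In iOSN1 6 of 15 were called, Robo2 higher and Nfia, Nfib, Nfix, Nrp1 and Nrp2 lower (median −0.079 over the list and 0.013 over all genes), against 2.72% of all genes, and DESeq2 called 2 of the 15. Maturation markers were counted as well. In iOSN2, 3 of 6 markers of mature OSNs were called, all lower on the dorsal side (Omp −0.18, Gng13 −0.27 and Stoml3 −0.20), and 2 of 6 markers of immature OSNs, both higher (Gng8 0.85 and Stmn2 0.23), against 4.11% of all genes. DESeq2 called 1 of the mature and 0 of the immature markers there. In iOSN1, 1 of the 6 mature markers was called, Gnal, a G protein subunit of odor transduction, which was higher on the dorsal side (0.55, SE 0.11, edgeR adjusted p 0.00148). At an unadjusted p under 0.05 (edgeR) were 4 of the 6, all higher on the dorsal side (Gnal, Cnga2 at 0.47, Omp at 0.35 and Stoml3 at 0.25). Of the 6 immature markers edgeR called 0 (1 at an unadjusted p under 0.05, Gng8 at 0.22), against 2.72% of all genes, and DESeq2 called 0 of either list. Between stages Gnal was called (−0.61, SE 0.12, edgeR adjusted p 0.00299), and the part of maturation in the marker differences was not tested.

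Nqo1 is a textbook target of the antioxidant factor Nrf2, so 24 genes of that program were set beside it. Of 17 tested in iOSN2, 2 were called (1 by DESeq2, and 5 were at an unadjusted p under 0.05 with edgeR), where 4.11% of all genes were: Me1 was higher on the dorsal side (1.46, SE 0.34, edgeR adjusted p 0.00366) and Prdx1 was lower (−0.49, SE 0.08, edgeR adjusted p 1.07e-05). The median over the list was 0.0044, against 0.00052 over all genes. The gene of the factor itself, Nfe2l2, was at 3.45 ± 0.273 in dorsal and 3.70 ± 0.333 in ventral iOSN2 cells, and Gclm, a subunit of glutathione synthesis, at 1.55 ± 0.389 and 1.27 ± 0.0165. In iOSN1 none of 15 was called by edgeR (1 at an unadjusted p under 0.05) or by DESeq2, with a list median of 0.15 (0.013 over all genes), where 2.72% of all genes were called. By class in mature neurons 10 of 21 were called, 5 higher and 5 lower in class I (median −0.0084, over all genes −0.0015), where 18.6% of all genes were called.

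Relatives of the markers were counted in the same way. Of 14 adhesion genes related to Ncam2 (Ncam1, L1cam, Chl1, contactins, Cadm genes and others), 0 of 8 tested were called by side in iOSN2 with edgeR (1 at an unadjusted p under 0.05, median −0.058) and 0 of 10 in iOSN1 (2 at an unadjusted p under 0.05, median −0.0012), and DESeq2 also called 0 of each. With 4.11% and 2.72% of all genes called, lists of this length would hold less than 1 call at the rate of all genes. The adhesion gene Alcam lay on the ventral side at both stages without being called, at −1.35 in iOSN2 (SE 0.43, edgeR adjusted p 0.0622) and −1.13 in iOSN1 (SE 0.46, edgeR adjusted p 0.247). Of 21 lipid droplet and acyl-CoA synthetase genes, edgeR called 0 of 5 in iOSN2 (0 at an unadjusted p under 0.05 and 0 with DESeq2, median −0.053) and 2 of 6 in iOSN1, where 2.72% of all genes were called. These were the acyl-CoA synthetase genes Acsl6, higher (0.56), and Acsl5, lower (−1.88), on the dorsal side (list median −0.0025), and DESeq2 called 0 of the 6.

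By receptor class within iOSN2, Nqo1 (2.48, SE 0.14), Acsm4 (2.37, SE 0.14) and Ncam2 (−2.70, SE 0.31) were called by edgeR (adjusted p 1.19e-14, 8.07e-14 and 2.53e-07), where 124 of 7930 genes were (1.56%, with 0.971% higher and 0.593% lower in class I), or 63 without mouse 1 and 66 with DESeq2. Cidea was not called, at 1.04, 1.00, 0.229 and 1.49 in class I and 1.32 ± 0.156 in class II cells (−0.48, SE 0.21, edgeR adjusted p 0.381), and its difference was −0.21 without mouse 3 and −0.69 without mouse 4. The class difference in Cidea was larger in mature neurons than in iOSN2 by −2.23 (SE 0.30, edgeR adjusted p 4.12e-07), and no such difference was called for the other 3 genes, where 73 of 10120 genes were (0.721%, with 0.445% and 0.277% in the positive and negative direction), or 32 without mouse 1, 43 without mouse 4 and 47 with DESeq2.

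Most class I Cidea UMIs in iOSN2 came from few receptors. Of 92 class I iOSN2 cells, 14 (9 receptors) expressed receptors without at least 3 clustered mature neurons, and these 14 cells held 47 of the 64 Cidea UMIs. In them Acsm4 was at 4.71, Cidea at 3.89 and Nqo1 at 2.98 UMIs per 10000, against 5.83, 0.296 and 18.5 in the other 78 cells. A UMI of both Acsm4 and Cidea was found in 10 of the 14 and in 6 of the 78 cells, at median depths of 7815.5 and 7515 UMIs. The 14 cells and their class II counterparts were then left out, a choice made after the values were seen. The class difference in Cidea in iOSN2 was then −2.20. The cells left out were known to hold most class I Cidea UMIs, so the direction of this change followed from the choice and is no test. With the mature neurons of such receptors left out as well, the difference between stages was −0.66, which is a description for the same reason.

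The receptors concerned were named after their values were seen. The paper clustered only populations with at least 3 mature neurons, so receptors with fewer were left out before clustering. Over iOSN2 and mOSN, 18 class I receptors (37 cells) lacked at least 3 clustered mature neurons. Of these, 7 held Cidea UMIs and 11 (20 cells) none. The 5 with the most Cidea UMIs follow. The 5 Olfr613 cells (iOSN2 and mOSN of 3 mice) held Acsm4 at 4.79, Cidea at 4.17 and no Nqo1. Olfr557 (3 cells, 5.18 and 3.89), Olfr630 (3 cells, 4.75 and 4.75), Olfr67 (2 cells, 4.65 and 9.31) and Olfr78 (2 cells, 7.50 and 4.04) gave Acsm4 and Cidea in the same order. None of these 15 cells held an Nfix UMI, and 1 Ncam2 UMI was counted in all. In these 5 Acsm4, a dorsal marker, and Cidea, a ventral marker, were found in the same cells, while Nqo1 was at 0 in Olfr613, Olfr67 and Olfr78, 0.324 in Olfr557 and 6.34 in Olfr630.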

How the data were processed

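Per the submitters' processing notes, reads were processed with Cell Ranger 6.0.1 on GRCm38. The deposited values are counts: whole UMIs per gene and cell barcode, not normalized by the authors, in 1 matrix per mouse and a merged matrix that held the same values for the 4 genes. Cell types, the 10 clusters and receptor identities are those the authors deposited. Doublets were not removed here. Scrublet, run per library, marked 45 of 21809 barcodes and so did not work as a caller, and an alternative left out the 4% of barcodes with the highest scores. The 4 genes and all lists were chosen with earlier results of these data known.

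UMIs were summed per mouse and group and tested with edgeR 4.0.16 in R 4.3.3 (quasi-likelihood, TMM, filterByExpr, mouse as a replicate block because all sums of a mouse come from 1 animal). Benjamini-Hochberg adjustment ran over all genes tested, with 1430 receptor genes left out, and a gene was called at an adjusted p under 0.05. An SE given with an edgeR result is the size of the log2 difference divided by the square root of its F. That F shares its estimate of variation over genes, so such an SE is not the spread of a gene over 4 mice. By class in mature neurons DESeq2 gave larger SEs for the 4 genes, for example 0.139 against 0.046 for Acsm4 and 0.100 against 0.029 for Nqo1. The mouse number pairs sums by design, so no further check of pairing was made. Differences between cell types, clusters and stages were not tested. Populations had 20 or more neurons, and 5 were named for each gene by level. Listed genes were named where called. The model was tested on simulated counts. Promoters came from RefSeq and motifs from a letter search. Detection shares were computed in Python 3.11.15 after random thinning of each cell, with cells under 2500 UMIs left out. Scrublet was that of scanpy 1.11.5. Alternatives were other size factors, DESeq2 1.42.0, filters, block, receptor cutoffs, sides and left-out mice. Limits from 3 counts cover counting error only.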

Additional observations from a re-analysis of the deposited data

Results flagged for a closer look

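Levels of the 4 genes were examined for single mice far from the others in 120 groups of 4 mice, and 8 groups held one, where chance gives about 1 in 20. In microvillar cells, mouse 2 was highest for Nqo1 in Mv1 (0.814 UMIs per 10000, others up to 0.0485) and in Mv2 (0.168), and mouse 1 was the only one with Cidea in Mv1 (0.0970). Among ventral clusters, mouse 4 was lowest for Nqo1 in Cd55+ V. (0.310, others 2.05 to 2.34) and in Dlg2+ V. (0.204, others 0.545 to 0.612). Mouse 4 also had the lowest Nqo1 of all mature neurons (5.26). In small dorsal clusters, mouse 1 alone held UMIs of the ventral genes, with Ncam2 at 0.0339 in Cd36+ D. and 0.160 in Cd55+ D. and Cidea at 0.0534 in Cd55+ D., and these values rested on 1, 3 and 1 UMIs.

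The class effect on Cidea differed between mature neurons and iOSN2 by −2.23 on the log2 scale in the edgeR interaction test, and by −0.66 without the receptors that lacked clustered mature neurons.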

How the results depend on the processing

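Of 716 alternative values, 647 kept their direction, call or size, 69 changed and no called value reversed. The calls of the 4 genes by side in iOSN2 and by class in mature neurons held in every alternative. With DESeq2 the genes called numbered 1017 (class, mature neurons), 88 (side, iOSN2), 43 (side, iOSN1), 19 (side between stages), 66 (class, iOSN2) and 47 (class between stages). Cidea by side in iOSN1 was at −2.29 with DESeq2, and the statistic of Nqo1 among ventral populations was 39.7, neither called. With no replicate block the counts were 1080 (class, mature neurons), 10 (side between stages) and 17 (class between stages), and the block changed no call of the 4 genes. With 90% of neurons on 1 side the counts by side were 196 (iOSN2) and 114 (iOSN1), with exactly 1 receptor detected 183, 113 and 17 (between stages), and with 5 or more receptor UMIs 18 between stages. Acsm4 between stages was called with no filter (−1.77). With receptors that had clustered mature neurons, Cidea by class was −2.20 in iOSN2 and −0.66 between stages, where 34 genes were called. The cause of these changes was not tested.

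Leaving out 1 mouse gave 214 to 281 genes by side in iOSN2, 83 to 164 in iOSN1 and 9 to 37 between stages, and 63 to 121 by class in iOSN2 and 32 to 64 between stages. Cidea by side in iOSN1 ranged from −2.81 to −1.60, and between stages Acsm4 from −2.41 to −0.95 and Nqo1 from −0.053 to 1.49. Shares of neurons moved with depth. Counting 2 or more UMIs gave 86.2% (Nqo1), 37.0% (Acsm4), 5.19% (Ncam2) and 10.5% (Cidea). Acsm4 was at 83.5% without thinning and 86.6% at 5000 UMIs, Ncam2 at 44.0% and 47.0%, and Cidea at 35.2% and 39.3%. Leaving out 1 mouse gave 68.2% to 70.3% for Acsm4 and 25.8% to 27.1% for Ncam2. Over the 353 populations with 10 or more neurons, 96 were high for Nqo1, 106 for Acsm4, 195 for Ncam2 and 79 for Cidea, and 1 for a dorsal and a ventral gene. That number was 6 when high meant over 1 UMI per 10000, and 0 to 2 with 1 mouse left out. Fits with no filter among all and among ventral populations were not run. Too few INP cells had a receptor to be compared.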

Other observations

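Neurons of the Gucy1b2 type, which use a soluble guanylate cyclase and no odorant receptor, numbered 6 in 3 mice. Cidea was at 10.3, 8.07 and 7.33 UMIs per 10000 in mice 1, 2 and 4 and Ncam2 at 0.941, 4.04 and 2.45. No Nqo1 or Acsm4 UMI was counted, which allows up to 0.730 UMIs per 10000 for each (3 counts over the group, counting error only). The Cidea level of these neurons lay in the range of the highest odorant receptor populations.

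Among the 5 genes with the smallest adjusted p in each direction by side in iOSN2 (edgeR) were, beside the 4 markers, 4932412D23Rik, Cartpt and Ppa1, higher on the dorsal side (log2 differences 2.46, 1.33 and 1.09), and Nfix, Rprm and Nfib, lower there. In iOSN1 they were, beside Nqo1, Acsm4 and Ncam2, the genes 4932412D23Rik, Cartpt and Socs2, higher on the dorsal side, and Nfix, Tspo, Rprm and Bcl11b, lower there.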
